A study of Mus musculus with 6 samples.

Results

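The transcripts described here are those of 43 genes of mitosis and the spindle checkpoint, taken as a list by name: kinases and cyclins of mitotic entry, the chromosomal passenger complex, the checkpoint itself, separase and securin, kinetochore proteins, spindle motors, the cytokinesis machinery, condensin, topoisomerase and the proliferation antigen Mki67. All probes that the array annotation assigns to one of these genes alone were used. A probe entered where 1 or more of the arrays gave it a detection p below 0.01, the level called above background here. Of the 43 genes, 41 had a named probe, and 34 had a probe above background, out of 10160 such genes on the array and 19057 genes with a named probe.

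The arrays compared 2 Rnaseh2b-/- lines with 4 Rnaseh2b+/+ lines of mouse embryonic fibroblasts (MEFs), cells grown out from single whole E10.5 embryos on a C57BL/6J background. Every line, the controls included, was also p53-/-, because embryos without Rnaseh2b die early. The Rnaseh2b null allele, tm1d, lacks exon 5 after Cre excision, and both null lines had been picked by the study from a larger set for a strong interferon response, so they are not a random sample of null lines. Cells were kept at 3% O2 and 5% CO2, and 200000 were plated per well. The medium was replaced the next day, and total RNA was taken after a further 20 h without any treatment. The passage of these lines is not given in the sources used here. The question put to these genes is whether loss of RNase H2, the nuclease that removes ribonucleotides from DNA, went with a different level of the mitotic programme.

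Mitotic transcripts are made in a burst. In quiescent and G1 cells a repressor complex of MuvB proteins with a pocket protein sits on their promoters at a short element called the CHR (cell cycle genes homology region), and from G2 the same core, now with B-Myb and FoxM1, activates them together with the CCAAT-binding factor NF-Y. Their level in a culture therefore follows how many of its cells are close to division, and in bulk RNA more dividing cells and more transcript per dividing cell cannot be told apart. p53 acts on this programme through its target p21, a route that is absent as such in p53-/- cells.

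Most promoters of the list held these elements. RefSeq promoters (assembly GRCm38.p6, 250 bases before to 50 after an annotated start) were matched for 36 of the 43 genes, with 39 promoters in all. A CHR-type element, written TTTGAA or TTCGAA and searched on both strands, was present in 31 of the 39 promoters (79.5%), against 6316 of the 32851 promoters of the whole genome (19.2%). The CCAAT box, searched on both strands, was in 76.9% of the promoters of the list and in 37.4% of all promoters. Both occurred together in 71.8% against 7.52%. The plot of motif positions shows the CHR matches gathered around the start. Matches to 6 letters are a description and not a measured binding site. The 100 bases upstream of the start are shown here for 6 genes in which the CHR element (TTTGAA, read as TTCAAA on the other strand) and a CCAAT box (ATTGG on the other strand) lie close to each other. Nusap1 and Ncaph, the 2 genes whose values did not overlap between genotypes, are shown as well, and neither motif was found in their promoters. Neither was found for Mad2l1, Birc5, Nuf2 and Pttg1, and the groups of Mad2l1 and Birc5 overlapped. A link between motifs and differences was not tested. Capitals mark the motifs, and each sequence runs 5' to 3' on the strand of the gene.
Cdk1 (chr10:69352913-69353012, minus strand): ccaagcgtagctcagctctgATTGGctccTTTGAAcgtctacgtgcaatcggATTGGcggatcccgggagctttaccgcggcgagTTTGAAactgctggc
Cdc20 (chr4:118437344-118437443, minus strand): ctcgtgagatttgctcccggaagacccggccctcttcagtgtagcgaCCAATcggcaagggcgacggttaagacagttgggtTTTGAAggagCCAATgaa
Espl1 (chr15:102296193-102296292, plus strand): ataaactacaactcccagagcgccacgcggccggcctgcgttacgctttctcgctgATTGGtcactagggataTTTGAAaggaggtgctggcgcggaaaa
Kif11 (chr19:37376282-37376381, plus strand): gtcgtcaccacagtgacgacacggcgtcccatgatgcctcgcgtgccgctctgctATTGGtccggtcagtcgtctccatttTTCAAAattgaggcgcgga
Top2a (chr11:99024190-99024289, minus strand): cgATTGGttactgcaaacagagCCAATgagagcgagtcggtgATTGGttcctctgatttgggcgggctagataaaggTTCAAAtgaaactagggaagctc
Bub3 (chr7:131560270-131560369, plus strand): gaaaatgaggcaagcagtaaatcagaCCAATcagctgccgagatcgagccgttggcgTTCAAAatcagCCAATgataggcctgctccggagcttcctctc
Nusap1 (chr2:119618198-119618297, plus strand): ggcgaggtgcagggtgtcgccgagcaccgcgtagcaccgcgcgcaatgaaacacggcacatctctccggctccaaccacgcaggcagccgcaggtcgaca
Ncaph (chr2:127133955-127134054, minus strand): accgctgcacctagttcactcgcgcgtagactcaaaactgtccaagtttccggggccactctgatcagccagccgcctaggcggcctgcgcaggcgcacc

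**Figure D1:**
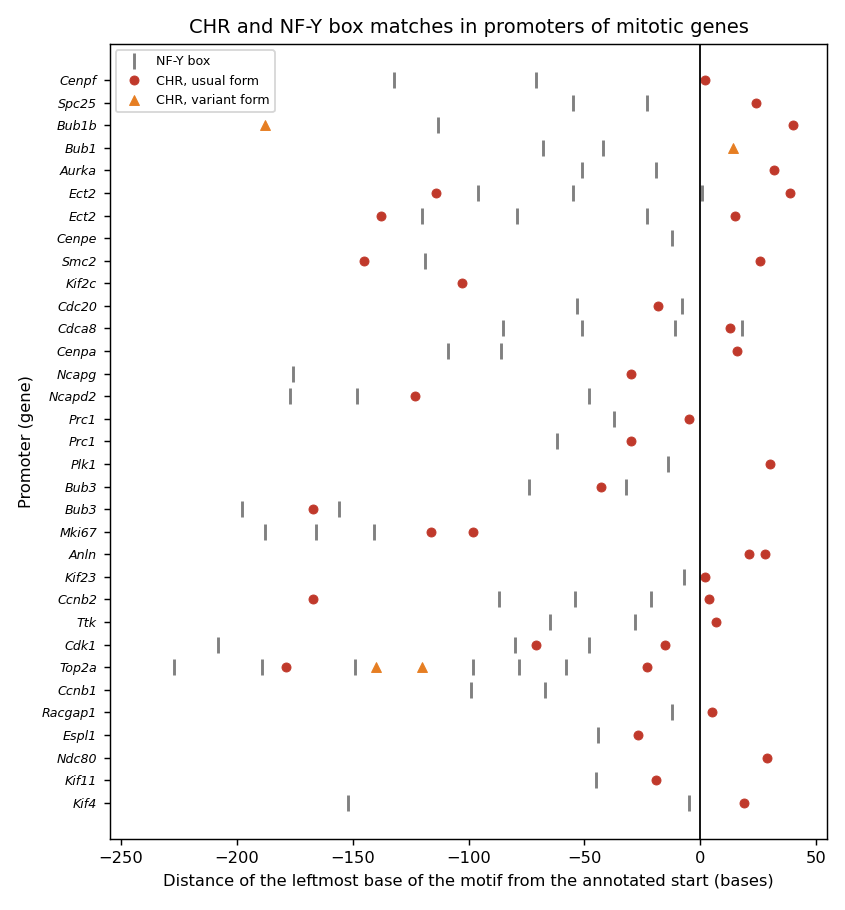
Position of CHR-type elements (dots for the usual form, triangles for the variant form) and NF-Y boxes (CCAAT, bars) relative to the annotated start of transcription at 0, in bases, in the promoters of mitotic genes that hold at least 1 of the motifs. Most CHR matches lie within 100 bases upstream to 50 downstream of the start (28 of 39 promoters, 71.8%, against 8.59% of all promoters).

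The arrays were alike in the number of probes detected and in rank order. Their median intensity before normalization was 108 and 115 in the null lines, against 124, 129, 129 and 125 in the controls. Each array had 15519 to 16114 probes above background, and Spearman correlations between arrays lay between 0.875 and 0.906. Rnaseh2b, the deleted gene, had a log2 signal of 5.43 and 5.53 in the null lines, against 9.81, 9.17, 9.48 and 9.50 in the controls (limma adjusted p = 0.00121), which matches the labels; 1 of its 2 probes was above background in Rnaseh2b-/- line 1 and neither was in Rnaseh2b-/- line 2, so no exact fold is given. Of 15 fibroblast markers 14 were above background, 13 of them on all 6 arrays. Col1a1 was high in every line, at 12.16 and 12.12 in the null lines and 13.26, 12.30, 12.47 and 12.67 in the controls. Rnaseh2b-/- line 1 stood apart in muscle genes. Acta1, skeletal actin, was at 13.63 and 9.68 in the null lines, against 9.67, 9.20, 8.46 and 8.95 in the controls. Of 26 muscle markers 19 were above background, but only 7 of them on all 6 arrays, so that many entered through the lines where they were high. The mean of the 19 was 4.64 above the control mean on the log2 scale in that line and 0.73 in Rnaseh2b-/- line 2, against 0.51, 0.18, -0.33 and -0.36 in the controls. Myod1, the myogenic master regulator, was above background in Rnaseh2b-/- line 1 alone, while Myf5 and Myf6 were above background in no line. Epithelial markers (8 of 14 above background, none on all 6 arrays and Epcam on none) were 2.53 and 1.53 above the control mean in the null lines, against 0.36, 0.11, -0.41 and -0.061 in the controls. With no filter on detection the median difference was 0.098 over all 14 epithelial markers and 2.44 over 24 muscle markers. Of the markers, Myl7 and Ryr1 of muscle, Tspan8 of epithelium and Dcn of fibroblasts were called higher in the null lines (limma adjusted p = 0.00954, 0.0415, 0.0400 and 0.0459), and none was with the replicate block. The fibroblast list as a whole had 11 of 14 negative differences (median -0.19). The part of these other cell types in the mitotic results was not tested, and the counts and medians of the mitotic genes are also given without that line.

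No mitotic gene passed the test between genotypes. With limma and Benjamini-Hochberg adjustment over all 10160 genes, 0 of the 34 were higher and 0 were lower at an adjusted p under 0.05, where 0.354% of all genes were higher and 0.157% lower. Taking unadjusted p under 0.05 instead, Nusap1 and Ncaph were higher, 2 of the 34 (5.88%, against 7.99% of all genes), and 0 were lower (against 9.13%), so the share of the list lay below that of the array. Likewise, both null lines lay above all 4 controls in the same 2 genes and below them in 0, while over all genes 12.5% lay above and 15.1% below. The smallest adjusted p of the list was 0.209. What the list did show was a common sign: 31 of the 34 log2 fold changes were positive (91.2%, against 47.4% of all genes), with a median of 0.31 against -0.02 for all genes and a range of -0.15 to 0.68. The median standard error was 0.28, and the 95% interval included 0 for 32 of the 34 genes. The intervals also bound what could have been missed: 18 genes had an interval lying wholly within a doubling in either direction, the lowest lower bound was -0.79 and the highest upper bound 1.37. The plot of fold changes shows how the intervals compare.

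**Figure D2:**
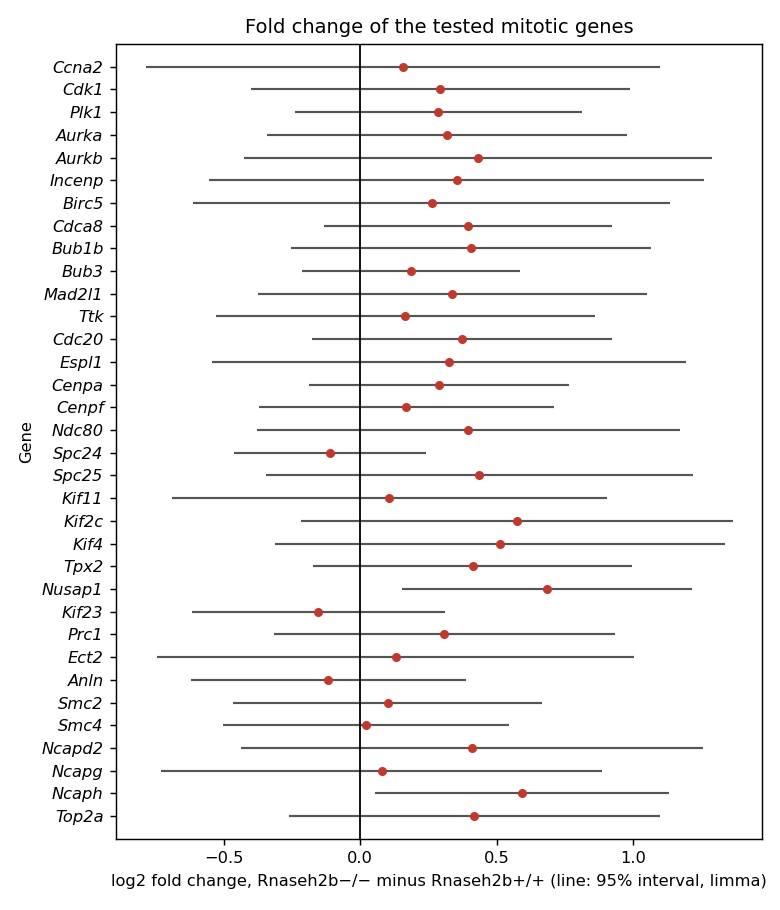
Log2 fold change (Rnaseh2b-/- minus Rnaseh2b+/+, dots) of the 34 mitotic genes above background with 95% intervals (lines) from limma, grouped by role from top to bottom. Nearly all dots lie to the right of 0, and 32 of the 34 lines cross it.

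The single lines had a common order. Averaged over the 34 genes, Rnaseh2b-/- line 1 was 0.53 above the mean of the controls on the log2 scale and Rnaseh2b-/- line 2 was 0.031 above it. Among the controls, Rnaseh2b+/+ line 1 was 0.48 above that mean, line 2 was 0.37 below, line 3 was 0.098 below and line 4 was 0.016 below. One null line and one control thus formed the upper pair, and the second null line lay between Rnaseh2b+/+ line 1 and the other 3 controls.

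Gene by gene, the order was steadier among the controls than among all 6 lines. Rnaseh2b+/+ line 1 was the highest control for 34 of the 34 genes (32.7% over all genes), and Rnaseh2b+/+ line 2 the lowest control for 28 (82.4%, against 24.7%). The highest of all 6 lines was Rnaseh2b-/- line 1 for 18 genes, Rnaseh2b+/+ line 1 for 15 and Rnaseh2b-/- line 2 for 1. Rnaseh2b-/- line 1 exceeded Rnaseh2b-/- line 2 in 32 of the 34 genes (94.1%, against 48.4%), and Rnaseh2b-/- line 2 lay within the range of the controls in 27. The top control was the same under other scalings: with the deposited log2 values, with arrays scaled to a common median and without background correction, Rnaseh2b+/+ line 1 remained the highest control for 34 of the 34, and with the brightest probe of each gene for 32. Rnaseh2b+/+ line 2 was the lowest control for 24 genes with median scaling. Under that scaling the mean of the list relative to the controls was 0.37 and -0.098 in the null lines, against 0.51, -0.27, -0.13 and -0.12 in the controls. The highest mean was then in Rnaseh2b+/+ line 1. Between these 2 controls the median difference (line 1 minus line 2) was 0.84, and between the null lines (line 1 minus line 2) 0.48. The range among the 4 controls exceeded the difference between genotypes for 33 of the 34 genes (97.1%, against 76.9% of all genes). Its median was 0.87, against 0.43 for all genes.

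**Figure D3:**
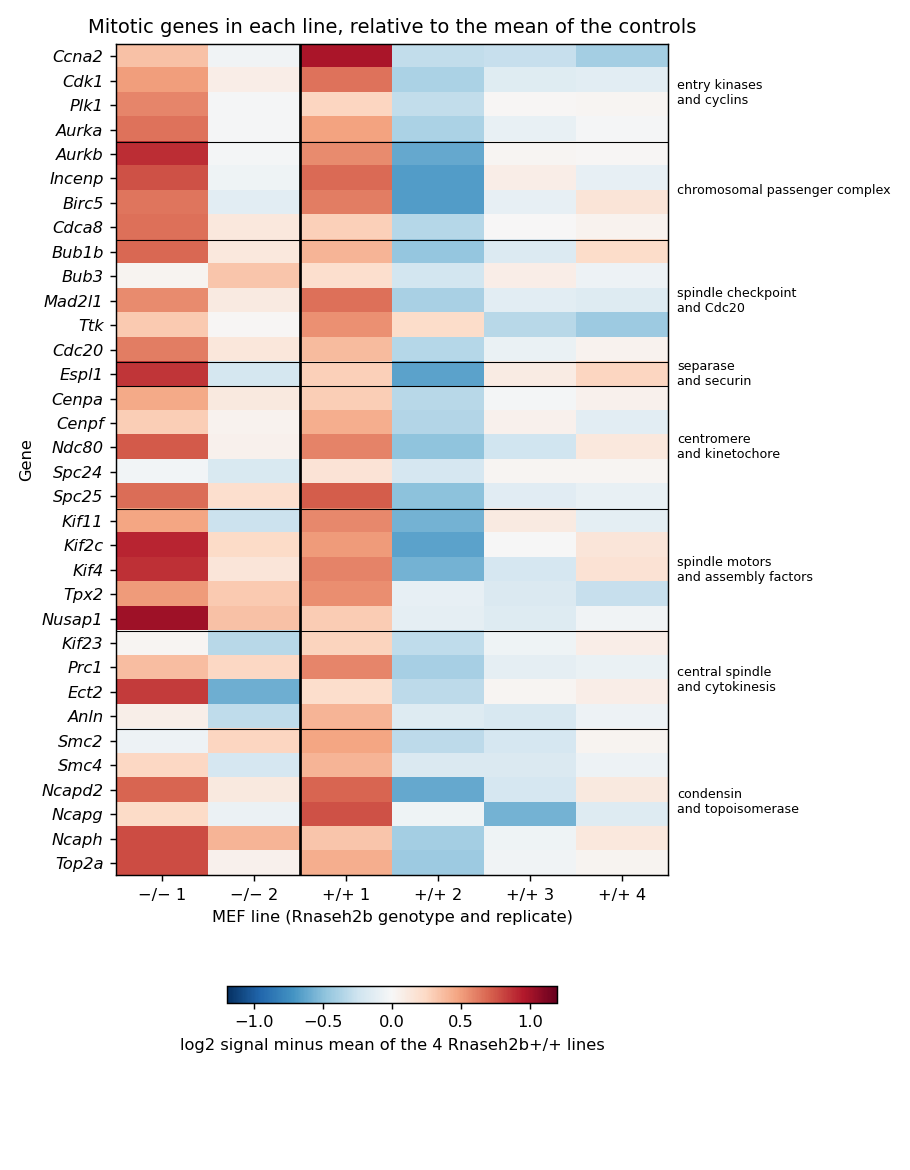
Log2 signal of 34 mitotic genes (rows, grouped by role) in 6 MEF lines (columns, Rnaseh2b-/- to the left of the thick line), as the difference from the mean of the 4 Rnaseh2b+/+ lines. Rnaseh2b-/- line 1 and Rnaseh2b+/+ line 1 are mostly red, and Rnaseh2b+/+ line 2 is mostly blue.

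The counts were also made with lines left out. Without Rnaseh2b-/- line 1 the median log2 fold change of the 34 genes was 0.071, with 20 positive and 14 negative (58.8% positive, against 48.4% of all genes). Without Rnaseh2b+/+ line 1 the median was 0.49 and 9 genes were higher at an unadjusted p under 0.05 (10.2% of all genes were), with Tpx2 having the smallest adjusted p (0.0877). Without Rnaseh2b-/- line 2, which leaves the line with the muscle signal alone in its group, the median was 0.60. Without any one of Rnaseh2b+/+ lines 2, 3 and 4, Nusap1 alone passed that threshold, and without Rnaseh2b+/+ line 2 the median was 0.18. Groups without overlap were counted by direction. Without Rnaseh2b-/- line 1, 2 of 34 genes were above all controls and 4 below, where 23.7% and 25.9% of all genes were. Without Rnaseh2b-/- line 2, 17 were above and 0 below, where 26.7% and 31.4% of all genes were. Without Rnaseh2b+/+ line 1, 15 were above the remaining controls and 0 below, where 19.3% and 23.2% of all genes were. With both line 1 arrays left out, the median was 0.26 over 33 genes, of which 26 were positive and 7 negative (78.8% positive, against 47.9% of all genes). By role, the medians without Rnaseh2b-/- line 1 were -0.015 for entry kinases and cyclins, -0.037 for the passenger complex, 0.13 for the checkpoint, -0.22 for Espl1, 0.12 for the kinetochore, 0.24 for spindle motors, -0.32 for the central spindle and 0.086 for condensin and topoisomerase. Nusap1 then differed by 0.26 and Ncaph by 0.41. The number of genes at an adjusted p under 0.05 was 0 in each of these.

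The genes moved together over the lines. The median Pearson r between pairs of the 34 genes over 6 lines was 0.80, against 0.0015 between pairs of all genes, and the median Spearman rho was 0.71. Without Rnaseh2b-/- line 1 and Rnaseh2b+/+ line 1, the pair farthest from the median, the median r over the remaining 4 lines was 0.65. Few points and shared RNA samples stand behind these values, so they are descriptive. Against the mean of the other members, 20 genes had an r over 0.9, led by Aurka (0.99), Spc25 (0.98) and Ncapd2 (0.98). The loosest were Bub3 (0.48), Ttk (0.52) and Spc24 (0.60).

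The kinases and cyclins of mitotic entry had 4 of 6 genes above background, with a median log2 fold change of 0.29. Plk1, which drives entry, spindle assembly and cytokinesis, had a log2 signal of 10.85 and 10.24 in the null lines, against 10.52, 9.97, 10.27 and 10.29 in the controls (log2 fold change 0.29 ± 0.22 SE, limma adjusted p = 0.540). The null lines lay on either side of the controls' middle values, and without Rnaseh2b-/- line 1 the difference was -0.017. Ccna2, cyclin A2, was near the floor at 5.96 and 5.56 in the null lines, against 6.59, 5.30, 5.32 and 5.20 in the controls, and it was above background in 1 null line and 1 control only. Here the highest value of all was a control. Cdk1, the kinase that both cyclins activate, and Aurka, which matures centrosomes, had log2 fold changes of 0.29 and 0.32 (limma adjusted p = 0.632 and 0.587). The B-type cyclins gave no value, since Ccnb1 had no named probe and Ccnb2 was above background on no array (smallest detection p 0.247).

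All 4 genes of the chromosomal passenger complex, which corrects faulty kinetochore attachments and later sets up the midzone, were measured and had positive differences (median 0.37). The complex showed the spread between lines plainly: its mean relative to the controls was 0.74 and -0.017 in the null lines, against 0.54, -0.57, 0.0033 and 0.031 in the controls. Cdca8, the subunit borealin, had the tightest interval, with 10.16 and 9.63 in the null lines, against 9.79, 9.16, 9.51 and 9.55 in the controls (0.39 ± 0.22 SE, limma adjusted p = 0.401). Rnaseh2b-/- line 2 was below the highest control. For Birc5, or survivin, the values were 10.67 and 9.91 in the null lines, against 10.65, 9.36, 9.93 and 10.19 in the controls, so that a null line and a control were level at the top and the difference of 0.26 ± 0.37 SE vanished in the range of the controls. Its catalytic subunit Aurkb gave 9.88 and 8.97 in the null lines, against 9.56, 8.38, 9.02 and 9.01 in the controls (0.43 ± 0.36 SE).

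Of the spindle checkpoint, which holds anaphase until every kinetochore is attached, 5 of 6 genes were above background, all with positive differences (median 0.34). Cdc20, the activator of the anaphase-promoting complex that the checkpoint restrains, had 10.23 and 9.76 in the null lines, against 10.00, 9.28, 9.54 and 9.66 in the controls (0.37 ± 0.23 SE, limma adjusted p = 0.445). Bub1b, which encodes the inhibitor BubR1, had 9.15 and 8.59 in the null lines, against 8.87, 8.004, 8.30 and 8.68 in the controls (0.41 ± 0.28 SE, limma adjusted p = 0.490). For both genes the second null line lay inside the range of the controls. Ttk, the kinase Mps1 that starts checkpoint signalling, was dim, with 6.01 and 5.71 in the null lines, against 6.24, 5.91, 5.37 and 5.26 in the controls (0.17 ± 0.29 SE). Mad2l1 and Bub3, which form the inhibitory complex with BubR1, differed by 0.34 and 0.18. Bub3 was the only gene with its highest value in Rnaseh2b-/- line 2 (8.24), against 7.94 in Rnaseh2b-/- line 1 and 8.10, 7.69, 7.98 and 7.84 in the controls. Bub1 was above background on no array (smallest detection p 0.413).

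Separase, Espl1, which cuts cohesin at anaphase, was the only gene of its pair above background. It had 6.85 and 5.77 in the null lines, against 6.28, 5.35, 6.08 and 6.24 in the controls (0.32 ± 0.37 SE, limma adjusted p = 0.678). The null lines lay at the top and near the bottom, 1.08 apart. Without Rnaseh2b-/- line 1 the difference turned to -0.22. Its inhibitor securin, Pttg1, had a smallest detection p of 0.0224 and stayed under the threshold on every array.

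At the centromere and kinetochore, 5 of 7 genes were above background (median 0.29). Cenpa, the histone variant that marks the centromere, had 9.82 and 9.48 in the null lines, against 9.65, 9.03, 9.34 and 9.41 in the controls (0.29 ± 0.20 SE, limma adjusted p = 0.495). In the Ndc80 complex, which grips the microtubule, the members parted. Spc25 had 9.73 and 9.26 in the null lines, against 9.78, 8.57, 8.92 and 8.97 in the controls (0.44 ± 0.33 SE, limma adjusted p = 0.531). Its partner Spc24 had 8.02 and 7.87 in the null lines, against 8.22, 7.86, 8.08 and 8.08 in the controls, a difference of -0.11 ± 0.15 SE. Its range among the controls, 0.36, was the smallest of the 34 genes, but it is the range of an average of 2 unlike probes. Over the lines these probes had a Pearson r of -0.47. Rnaseh2b+/+ line 2 was the highest control in the brighter probe (8.99) and the lowest in the dimmer (6.73). The difference between Spc25 and Spc24 was not tested. Ndc80 itself differed by 0.40 and Cenpf, a large corona protein, by 0.17, while Nuf2 and the motor Cenpe were not above background on any array (smallest detection p 0.0534 and 0.343).

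Spindle motors and assembly factors were the class with the highest median, 0.51 over 5 of 5 genes, and included Nusap1. Nusap1 bundles microtubules around chromosomes. Its gene-level signal was 7.65 and 6.99 in the null lines, against 6.94, 6.53, 6.48 and 6.60 in the controls (0.68, 95% interval 0.15 to 1.22, limma adjusted p = 0.209), and the groups did not overlap, by 0.05 on the log2 scale. An exact two-sided permutation test gave p = 0.0667, the smallest value that 2 against 4 lines allow.

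The probes of Nusap1 did not move alike. In the brightest, above background in all 6 lines, the log2 signal was 10.62 and 9.93 in the null lines, against 10.46, 9.95, 10.02 and 10.03 in the controls, a difference of 0.16 with overlapping groups and the second null line lowest. Another probe was at 6.77 and 5.85 in the null lines and at 5.50, 5.05, 4.89 and 5.12 in the controls, where it was not well above background on any array. Averaged over the null lines it was at least 1.68-fold higher, with the lowest signal of any probe above background (5.56) standing in for the controls. Rnaseh2b-/- line 2 lay less far above that signal than Rnaseh2b-/- line 1, so the bound does not hold for each line. The third probe was above background in Rnaseh2b-/- line 1 only. What sets the gene apart rests on these dim probes.

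**Figure D4:**
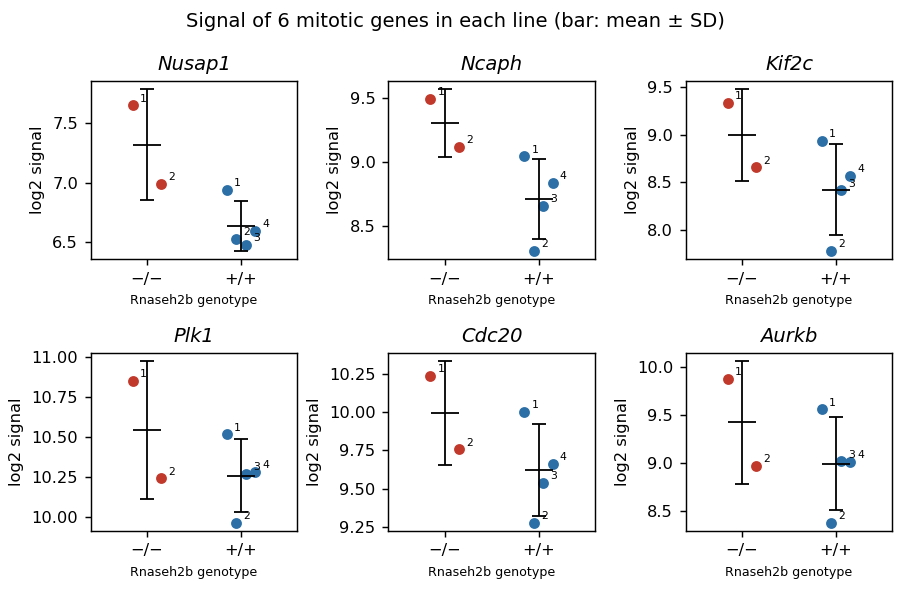
Log2 signal of 6 mitotic genes in 2 Rnaseh2b-/- lines (red) and 4 Rnaseh2b+/+ lines (blue), with the line number beside each point, the mean as a short bar and the SD as error bars, each panel on its own scale. Nusap1 and Ncaph are the genes without overlap between genotypes, and in the other panels Rnaseh2b-/- line 2 lies among the controls.

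Kif2c, or MCAK, which depolymerises microtubules at faulty attachments, had 9.34 and 8.66 in the null lines, against 8.94, 7.78, 8.42 and 8.57 in the controls (0.57 ± 0.34 SE, limma adjusted p = 0.415). Rnaseh2b-/- line 2 lay under the highest control, and Rnaseh2b+/+ line 2 lay 0.64 under the next control. The chromokinesin Kif4 had 8.13 and 7.40 in the null lines, against 7.85, 6.68, 7.05 and 7.43 in the controls (0.51 ± 0.35 SE, limma adjusted p = 0.483). Tpx2, which activates Aurora A on the spindle, had 9.50 and 9.31 in the null lines, against 9.55, 8.89, 8.81 and 8.71 in the controls (0.41 ± 0.25 SE, limma adjusted p = 0.427). Here both null lines lay above 3 of the controls, and only Rnaseh2b+/+ line 1 overlapped them. Kif11, the Eg5 motor that pushes the spindle poles apart, had 8.02 and 7.29 in the null lines, against 8.12, 6.98, 7.65 and 7.43 in the controls, and differed little (0.11 ± 0.34 SE).

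Of 6 genes of the central spindle and cytokinesis, 4 were above background, with 2 positive and 2 negative differences and a median of 0.0062. Prc1, which crosslinks the midzone microtubules, had 11.82 and 11.71 in the null lines, against 12.05, 11.06, 11.35 and 11.37 in the controls (0.31 ± 0.26 SE, limma adjusted p = 0.579), again with 1 control above both null lines. Anln, the contractile ring scaffold anillin, had 8.59 and 8.21 in the null lines, against 8.93, 8.37, 8.33 and 8.46 in the controls, a difference of -0.12 ± 0.21 SE whose sign depends on the probe, being 0.17 in the brightest and -0.41 in a dim one. Ect2, which switches on RhoA at the cleavage site, was the gene on which the null lines differed most, with 7.03 and 5.61, against 6.39, 5.87, 6.22 and 6.27 in the controls, so that the 4 controls lay between them. In Rnaseh2b-/- line 2 it was not above background, its value lying under the lowest detected signal of that array (5.63), so the size of the gap is uncertain. Kif23, the motor of the centralspindlin complex, differed by -0.15, and its 4 detected probes ran between -0.32 and 0.052. Its partner Racgap1 and the midzone motor Kif20a were not above background on any array (smallest detection p 0.202 and 0.0470).

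Condensin and topoisomerase II, which compact and disentangle chromosomes, had all 6 genes above background (median 0.26). Ncaph, the kleisin subunit of condensin I, had 9.49 and 9.12 in the null lines, against 9.04, 8.31, 8.66 and 8.84 in the controls (0.59, 95% interval 0.05 to 1.13, limma adjusted p = 0.262). The groups did not overlap, with 0.07 between the lower null line and the highest control, and the 2 probes gave near equal differences of 0.58 and 0.60. An exact two-sided permutation test on the group means gave p = 0.133. Its partners in the same complex differed by 0.41 (Ncapd2) and 0.08 (Ncapg), and the core subunits Smc2 and Smc4, shared with condensin II, by 0.10 and 0.02. Smc4 had 6.89 and 6.44 in the null lines, against 7.06, 6.47, 6.48 and 6.59 in the controls, where 1 null line was the lowest of all and the other was second to Rnaseh2b+/+ line 1. Top2a, topoisomerase II alpha, had 8.56 and 7.83 in the null lines, against 8.22, 7.34, 7.74 and 7.82 in the controls (0.42 ± 0.29 SE, limma adjusted p = 0.490), and its brighter probe differed by 0.71 where the dimmer differed by 0.13. Mki67, the coat protein of mitotic chromosomes, had no named probe.

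Over all probes the picture was the same as by gene. Of 86 probes for the list, 62 were above background in some line and 49 in all 6, and 53 of the 62 had a positive difference and 9 a negative one. Among 19 genes with more than 1 such probe, 15 had probes of 1 sign and 4 (Anln, Kif23, Ncapg and Smc4) had both signs. Of the 15, Spc24 and Cenpf had probes that did not move alike over the lines (Pearson r = -0.47 and -0.07).

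Neighbouring parts of the cell cycle programme followed the same lines. Of 93 further mitotic genes, 75 were above background, with 0 called and a median of 0.23. An unadjusted p under 0.05 was reached by 5 genes with a positive difference (6.67%, against 7.99% of all genes). It was reached by 1 with a negative difference, where 9.13% of all genes were lower. Their mean relative to the controls was 0.37 and 0.068 in the null lines, against 0.35, -0.19, -0.11 and -0.039 in the controls. Without Rnaseh2b-/- line 1 the median was 0.059. The smallest p belonged to Wapl, the cohesin release factor, with 7.52 and 7.63 in the null lines, against 8.08, 8.20, 7.94 and 8.02 in the controls (-0.48 ± 0.13 SE, limma adjusted p = 0.159), a gene that did not follow the order of lines. Stmn1, a microtubule destabiliser, Cenpq, a kinetochore protein, and Ube2c, the ubiquitin-conjugating enzyme of the anaphase-promoting complex, differed by 0.88, 0.55 and 1.15, with limma adjusted p of 0.217, 0.231 and 0.233. Ube2c was above background in only 2 of the controls, so the size of its difference is uncertain.

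Of 31 genes of DNA replication and S phase, 30 were above background, 29 with a positive difference, 5 higher at an unadjusted p under 0.05 (16.7%, against 7.99% of all genes) and 0 called (median 0.36). Their mean relative to the controls was 0.63 and 0.20 in the null lines, against 0.40, -0.25, -0.075 and -0.070 in the controls, so Rnaseh2b-/- line 2 lay above 3 controls, as it did for the mitotic list and the further mitotic genes. Without Rnaseh2b-/- line 1 the median was 0.18. Cdt1, the licensing factor that loads the replicative helicase, had 10.67 and 10.14 in the null lines, against 9.67, 9.59, 9.54 and 9.50 in the controls, with no overlap (0.83 ± 0.17 SE, limma adjusted p = 0.0893). Cdc45, a subunit of the active helicase, had 9.10 and 8.60 in the null lines, against 8.31, 7.49, 8.01 and 8.02 in the controls (0.89 ± 0.25 SE, limma adjusted p = 0.166). Neither passed the threshold. Whether S phase and mitotic genes differ in their response was not tested.

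Regulators of the programme were uneven. Of 19 cell cycle transcription factors, 14 were above background (median 0.18, or 0.0043 without Rnaseh2b-/- line 1, 0 called). E2f2, an activator of S phase genes, had 7.31 and 6.13 in the null lines, against 5.59, 5.28, 5.48 and 5.03 in the controls (1.37 ± 0.33 SE, limma adjusted p = 0.121). Its control values lay near or under the lowest detected signal, 5.56 on average over the controls, so the size of the difference is uncertain. The mitotic activator Foxm1 followed the lines, with 8.03 and 7.50 in the null lines, against 8.15, 6.88, 7.32 and 7.55 in the controls (0.29 ± 0.34 SE). Of 7 inhibitors of cyclin-dependent kinases, all above background, 0 were called (median 0.073, or 0.28 without Rnaseh2b-/- line 1). Cdkn1a, which encodes p21, had 9.87 and 8.10 in the null lines, against 7.20, 7.39, 7.87 and 7.59 in the controls, both null lines above all controls (1.47 ± 0.45 SE, limma adjusted p = 0.190). Cdkn1b, which encodes p27, had 6.01 and 6.28 in the null lines, against 6.61, 6.79, 6.81 and 6.99 in the controls (-0.66 ± 0.16 SE, limma adjusted p = 0.122). Rnaseh2b-/- line 1 had at once the highest Cdkn1a, the highest mean of muscle markers and the highest mean of the mitotic list. With median scaling the highest mean of the mitotic list was in Rnaseh2b+/+ line 1.

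**Figure D5:**
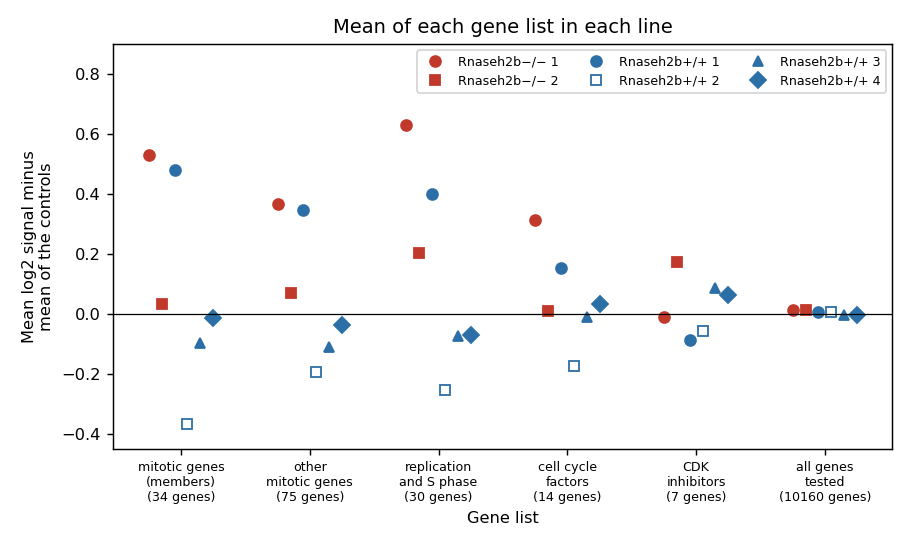
Mean log2 signal of each gene list in each line, minus the mean of the 4 controls, for the mitotic genes and 4 further cell cycle lists, with all genes tested at the right (red, Rnaseh2b-/-, blue, Rnaseh2b+/+, shapes as in the legend). Rnaseh2b-/- line 1 and Rnaseh2b+/+ line 1 are the upper pair in the mitotic and S phase lists, and Rnaseh2b+/+ line 2 is the lowest there. Over all genes the lines lie together near 0, which quantile normalization largely sets in advance. With median scaling (not plotted) the means over all genes were -0.12 and -0.11 in the null lines, against 0.029, 0.11, -0.034 and -0.10 in the controls.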

How the data were processed

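Total RNA of 6 MEF lines was labelled with biotin (Illumina TotalPrep) and hybridised to Illumina MouseWG-6 v2 bead arrays, 1 array per line. The authors summarised beads in BeadStudio, and the deposited table holds, per probe and array, a mean intensity before normalization and a detection p-value (the share of negative control beads at least as bright). The deposited normalized values are on the log2 scale and were made by the authors with neqc in limma. Genome build and annotation release are not given in the sources used here. Probes were named through GEO's platform annotation: of 45281 probes, 34885 had 1 gene symbol, 18 had several and 10378 had none.

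From the intensities, normexp background correction against the negative controls as inferred from the detection p-values, quantile normalization and log2 with an offset of 16 were applied (neqc, limma 3.58.1, R 4.3.3). The result differed from the deposited log2 values by at most 0.109. Only probes whose detection p fell below 0.01 on 1 or more arrays entered, the probes of each gene were averaged, and 10160 genes were tested with lmFit and eBayes, the fit without a replicate block, with Benjamini-Hochberg adjustment over all genes. Dim probes were bounded by the lowest detected signal. The script was checked on simulated data. The number of arrays, 2 against 4, limits the precision, and p-values measure the spread between lines, which the labels call biological replicates. All columns of the table belonged to these 6 lines.

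Single line values are given, in order of line number, for the 12 members with the smallest unadjusted p, for the member with the smallest p and the one with the smallest absolute difference in each role class, and for up to 4 genes of each further list. Aurkb, Bub3, Ect2, Foxm1, Col1a1, Acta1 and Myod1 were added after their values were seen. Members and lists were chosen with earlier results of these data known. Promoters and motifs came from RefSeq (GRCm38.p6). Replicate numbers were checked for pairing: deviations of same-numbered lines correlated at 0.096 and 0.061 over all genes. The deviations of the 2 null lines mirror each other, so these values are not independent checks. The numbers were not taken to pair lines. Whether same-numbered arrays shared a batch was not tested. Alternatives were no filter, a stricter filter, the deposited values, median scaling, no background correction, the brightest probe, each probe on its own, a variance trend, array weights, a replicate block, leaving out each line, and, chosen after seeing the data, leaving out both line 1 arrays.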

Additional observations from a re-analysis of the deposited data

Results flagged for a closer look

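Among 50 sets of values examined (the 4 controls for the 34 mitotic genes, for Rnaseh2b and for the means of 15 gene lists), 1 had a line far from the rest. For Ccna2, Rnaseh2b+/+ line 1 (6.59) lay above the other controls (5.30, 5.32 and 5.20), and its gap to the next control was 0.910 of the range of the controls, past Dixon's 95% critical value for 4 lines. Chance gives about 2.5 such sets among 50. The same line was the highest control for all 34 mitotic genes above background, and Ccna2 was above background in Rnaseh2b-/- line 1 and in this control only.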

How the results depend on the processing

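No mitotic gene was called at an adjusted p under 0.05 under any alternative, and the median log2 fold change kept its sign, between 0.071 and 0.60 with each line left out. The count of genes higher at an unadjusted p under 0.05 was 1 with the stricter filter, median scaling, no background correction and the brightest probe, where 5.18% to 8.75% of all genes were. With controls left out in turn, it was 9 without Rnaseh2b+/+ line 1 and 1 without any other control, where 5.67% to 10.2% of all genes were. The count lower was 0 in each of these, where 6.3% to 16.5% of all genes were. Genes whose groups did not overlap numbered 1 under those first 4 settings (Ncaph, higher, except with median scaling, where Spc24 was lower and neither Nusap1 nor Ncaph was separate), where 27.9% of all genes did not overlap, or 32.9% with median scaling. They numbered 21 without both line 1 arrays, with 17 higher and 4 lower, where 31.4% and 35.2% of all genes were. With each line left out in turn, they numbered between 2 and 17. Median scaling moved the median of all genes to -0.16 and that of the list to 0.14, a distance of 0.30. The replicate block gave 3 genes higher at an unadjusted p under 0.05 (Kif2c, Nusap1 and Ncaph, where 4.41% of all genes were), 0 called and a median of 0.28. Over all genes 0 were called with it, against 36 higher and 16 lower without it. In that fit Rnaseh2b+/+ lines 3 and 4 add nothing to the contrast, and few arrays are left to estimate the spread. Its lack of calls therefore cannot be read as a check of the main fit. Among the log2 fold changes of 21 named genes, 25 values under an alternative turned the sign and 328 did not. With the block, Ccna2 was -0.19, Ttk -0.22 and Smc4 -0.094. Without both line 1 arrays, Espl1 was -0.12, Kif11 -0.066 and Smc4 -0.067. Median scaling gave Kif11 -0.044 and Smc4 -0.077. Anln was 0.17 with the stricter filter, the brightest probe and each probe on its own, and 0.0047 without background correction. Smc4 was -0.034 with the brightest probe and each probe on its own. With each line left out, Plk1 ran between -0.017 and 0.59, Ccna2 between -0.045 and 0.48, Birc5 between -0.12 and 0.65, Espl1 between -0.22 and 0.87, Kif11 between -0.26 and 0.47, Anln between -0.31 and 0.071 and Smc4 between -0.21 and 0.25. A lone null line is assumed there to vary as the controls do. The causes were not tested.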
